A study of Homo sapiens with 9 samples.

Results

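The MYC and MAX network is a group of transcription factors that pair with one another, and the mRNAs of 10 of its genes were followed here: MYC, MYCN, MYCL, MAX, MXD1, MXD3, MXD4, MXI1, MNT and MLX. The genes were chosen by name, with earlier results of these data known, and each matched 1 of the 30956 genes in the deposited table. All 10 had a mean of at least 10 normalized counts over 6 libraries and were tested. The cells were HEK293T, an established human embryonic kidney line. RNA labelled as cytoplasmic was recovered by immunoprecipitation of V5-tagged CNOT7 carrying D40A, a substitution that impairs catalysis (RIP), or taken as input. CNOT7 is a nuclease of the CCR4-NOT complex, which removes poly(A) tails as mRNA decay begins. The labels name 3 RIP libraries, 3 inputs with doxycycline (3 µg/mL over 24 h) and 3 inputs without doxycycline. The table held values of 3 RIP libraries and of 3 inputs. The names of these 3 inputs give a number and no doxycycline state, so their doxycycline state is unknown here. The sources used here give neither the doxycycline treatment of the RIP cells nor the way the tagged protein was expressed. An untagged control precipitate was not analysed here, so a fold of RIP over input is not corrected for nonspecific recovery.

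MYC, MYCN and MYCL do not bind DNA alone. Each pairs with MAX through a helix-loop-helix leucine zipper, and the pair binds the E-box CACGTG and activates transcription. MXD1, MXI1, MXD3, MXD4 and MNT also pair with MAX, bind the same sequence and repress by bringing in SIN3 and histone deacetylases, while MLX pairs with MNT, MXD1 and MXD4 and with the glucose-responsive factors MLXIP and MLXIPL. MYC mRNA is a textbook short-lived mRNA, with AU-rich elements in its 3' untranslated region.

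The E-box that the network binds also stood in promoters of some of the network's own genes. RefSeq promoters (GRCh38.p14, 250 bases before to 50 after a start) were held for 9 of the 10 genes. None was held for MYC, which was therefore not searched. Those of MXD4, MNT and MLX contained CACGTG, which reads the same on both strands. Of all 35116 promoters 7.26% contained it, and of the 27305 genes with a promoter 8.77% had it in at least 1. MAX and MXI1 had more than 1 promoter each and no match in any. These windows of 30 bases are shown because they hold the sequence through which the proteins act. The E-box is in capitals.
MXD4: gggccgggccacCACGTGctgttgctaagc
MNT: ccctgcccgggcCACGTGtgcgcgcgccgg
MLX: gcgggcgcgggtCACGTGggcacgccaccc
The MXD4 window lies on the minus strand at chr4:2262330-2262359, with the first base of the E-box 238 bases before the start. The MNT window lies on the minus strand at chr17:2401236-2401265, 193 bases before the start. The MLX window lies on the plus strand at chr17:42567038-42567067, 50 bases before the start. A match is a description of the sequence. The 3 genes with a match include 2 whose mRNAs rose in RIP (MNT and MLX) and 1 whose mRNA did not pass the test (MXD4).

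The 6 libraries held 37140622 to 40764899 reads in genes, the most in RIP replicate 2. RIP replicate 2 listed 14786 genes at 0, against 6398 to 12079 in the others, and had the lowest weight when limma estimated library weights (0.31, others 1.01 to 1.68). Network genes had 43 reads (MYCN) to 47315 reads (MYC) per library. The kidney line was checked with genes that HEK293 cells are known to express: PAX2, LHX1, NEFM and NEFL had 58.1 to 3469 normalized counts in the inputs, and the liver gene ALB was at 0 there. Of the 16765 genes tested, limma called 3758 higher and 3550 lower in RIP at an adjusted p under 0.05. The higher genes made up 51.4% of the calls, and 78.8% when each library was scaled to its total reads, a scaling that raised the typical fold by 0.49 on the log2 scale. A direction for a gene with a small fold is therefore relative to the authors' scaling.

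Most network mRNAs were recovered above input. Of the 10 genes, 7 rose and 0 fell (limma, adjusted p under 0.05), while 22.4% of all genes tested were called higher and 21.2% lower. Of these 7, 4 rose at least 2-fold, as did 11.4% of all genes tested. For the same 7, every RIP library lay above every input, which held for 27.4% of all genes tested. The median log2 fold of the 10 was 1.10, and that of all genes tested was -0.04, with the middle 50% of them between -0.80 and 0.72. MYC, MYCL, MAX, MXD1, MXI1, MNT and MLX rose, and MYCN, MXD3 and MXD4 did not pass the test.

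**Figure D1:**
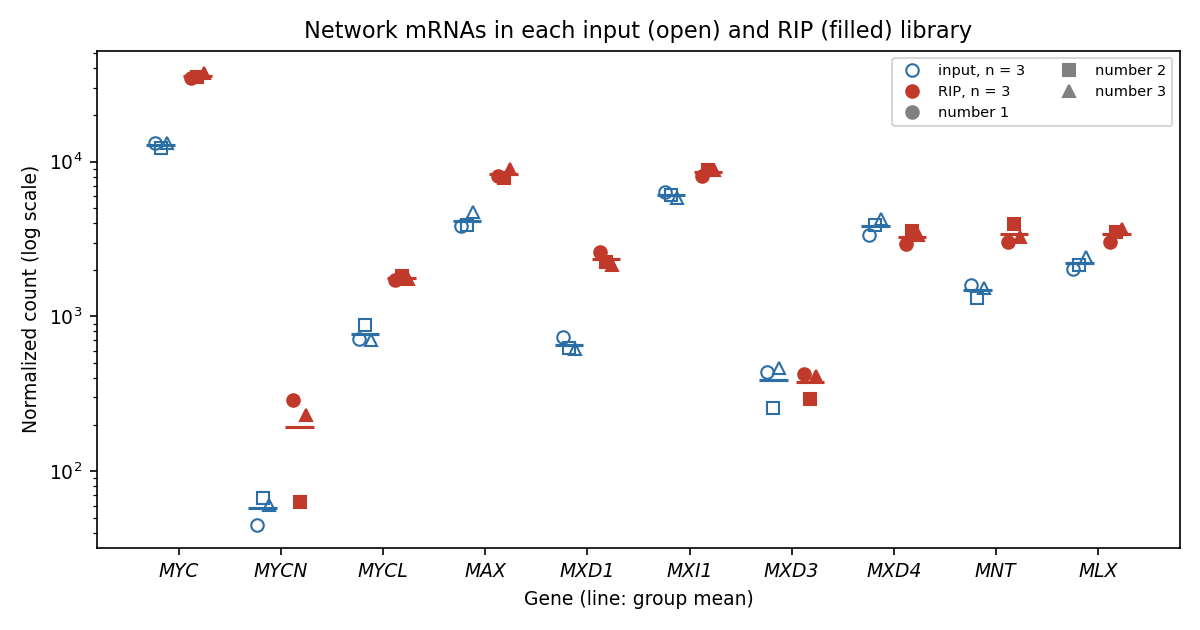
Normalized counts (log scale) of the 10 mRNAs in 3 input libraries (open) and 3 RIP libraries (filled), with a line at each group mean and a symbol for the library number. For MYC the RIP values lie between 34660 and 37090 and the inputs between 12225 and 13230, and for MYCN RIP replicate 2 lies among the inputs.

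MYC (ENSG00000136997, chromosome 8, 127735434 to 127742951, GRCh38.p14), the broadly expressed family member, was recovered with little spread. It had 34660, 35106 and 37090 normalized counts in RIP replicates 1 to 3 and 13076, 12225 and 13230 in the inputs. All RIP values lay above all inputs, with a coefficient of variation of 3.63% in RIP and 4.21% in input. The means were 35619 ± 1294 and 12844 ± 541 (SD, n = 3 each), a ratio of 2.77. The log2 fold, on log2 values with a pseudocount of 1 as throughout, was 1.47 (SE 0.11, limma adjusted p = 1.5e-06), and 91.0% of genes tested had a lower fold.

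MYCL (ENSG00000116990, chromosome 1, 39895428 to 39901917), first found amplified in lung cancer, rose as well. It had 1713, 1829 and 1746 normalized counts in RIP and 720, 885 and 709 in the inputs. The groups did not overlap, and the RIP libraries differed less among themselves than the inputs did. Its log2 fold was 1.20 (SE 0.16, limma adjusted p = 7.2e-05). An overlapping gene, MYCL-AS1, had 3.31 normalized counts in RIP replicate 1 and 0 in the other 5 libraries.

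MYCN (ENSG00000134323, chromosome 2, 15940550 to 15947004), the family member known for its amplification in neuroblastoma, was scarce and did not pass the test. It had 290, 63.3 and 230 normalized counts in RIP replicates 1, 2 and 3 and 44.9, 67.4 and 60.5 in the inputs. RIP replicate 2 lay between the inputs, while replicates 1 and 3 lay above all of them. The reads behind these values were 350, 85 and 294 in RIP and 43, 59 and 52 in input. The log2 fold was 1.50 (SE 0.60, limma adjusted p = 0.064). Without RIP replicate 2 it was 2.17 (limma adjusted p = 0.00041), and the authors' deposited table, which uses all 3 RIP libraries, gave 1.76 (SE 0.60, DESeq2 adjusted p = 0.0097). Over all alternatives with a test the adjusted p ran from 0.00041 (limma, without RIP replicate 2) to 0.26 (limma, without RIP replicate 1). The call for MYCN therefore turned on the library and the method, while each fold was above 0. The larger number of genes at 0 in RIP replicate 2 stands beside this result.

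MAX (ENSG00000125952, chromosome 14, 65006101 to 65102695), the partner that MYC and MXD proteins share, rose close to 2-fold. It had 8030, 7844 and 8967 normalized counts in RIP and 3840, 3891 and 4728 in the inputs. Every RIP library lay above every input, and number 3 was the highest in both groups. The log2 fold was 1.0 (SE 0.12, limma adjusted p = 4.7e-05), and 82.4% of genes tested had a lower fold. FNTB overlaps 56550 bases of the MAX locus. It had 131 to 234 normalized counts in RIP and 289 to 323 in the inputs, a log2 fold of -0.70 that did not pass the test (limma adjusted p = 0.10). Sources used here give no strand setting for the counting, so reads of overlapping genes cannot be told apart.

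The MXD paralogs, which repress E-box genes with MAX, were recovered unequally. MXD1 (ENSG00000059728, chromosome 2, 69915109 to 69942945), a gene known to be induced as cells leave the cycle and differentiate, had the largest fold of the 10 as fitted here. MYCN had a larger one with library weights (1.90 against 1.84) and without RIP replicate 2 (2.17 against 1.85), and MYCN, MYCL and MYC did with the implied mean of all 6 inputs, given further on. It had 2600, 2245 and 2150 normalized counts in RIP and 734, 623 and 617 in the inputs. The lowest RIP value was far above the highest input. Its log2 fold reached 1.82 (SE 0.16, limma adjusted p = 3.5e-06), and 94.7% of genes tested had a lower fold.

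MXI1 (ENSG00000119950, chromosome 10, 110207605 to 110287365), also known as MXD2, rose by less. It had 8011, 8834 and 8797 normalized counts in RIP and 6377, 6112 and 5830 in the inputs. The groups did not overlap. This gave a log2 fold of 0.49 (SE 0.11, limma adjusted p = 0.0033), within the middle 50% of all genes tested.

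MXD3 (ENSG00000213347, chromosome 5, 177305499 to 177312752), the paralog known from proliferating cells in S phase, did not pass the test. It had 426, 295 and 415 normalized counts in RIP and 440, 255 and 463 in the inputs. Number 2 was the lowest in both groups, and the groups overlapped throughout. Its log2 fold stood at 0.002 (SE 0.30, limma adjusted p = 1). PRELID1 overlaps 1451 bases of this locus and fell, with a log2 fold of -1.56 (limma adjusted p = 2.1e-05), from 6072 to 9094 normalized counts in the inputs to 2083 to 2920 in RIP.

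MXD4 (ENSG00000123933, chromosome 4, 2247432 to 2262109) also did not pass the test. It had 2921, 3555 and 3337 normalized counts in RIP and 3380, 3879 and 4232 in the inputs. RIP replicate 2 lay above the lowest input, so the groups overlapped. The log2 fold was -0.23 (SE 0.13, limma adjusted p = 0.20), and it was 0.27 (limma adjusted p = 0.13) when each library was scaled to its total reads.

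MNT (ENSG00000070444, chromosome 17, 2384073 to 2401060), the widely expressed MAX-binding repressor that antagonises MYC, rose. It had 3035, 3979 and 3254 normalized counts in RIP and 1596, 1312 and 1522 in the inputs. Number 2 was the highest RIP library and the lowest input, and the groups did not overlap. Its log2 fold came to 1.21 (SE 0.15, limma adjusted p = 4e-05).

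MLX (ENSG00000108788, chromosome 17, 42567100 to 42573203), the MAX-like partner of the glucose-responsive factors, had 3016, 3514 and 3693 normalized counts in RIP and 2037, 2157 and 2407 in the inputs. Every RIP library lay above every input. The log2 fold was 0.63 (SE 0.13, limma adjusted p = 0.0021), and 72.4% of genes tested had a lower fold. PSMC3IP, which overlaps 894 bases of the locus, had 344 to 455 normalized counts in RIP and 269 to 337 in the inputs, with a log2 fold of 0.44 that did not pass the test (limma adjusted p = 0.20).

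**Figure D2:**
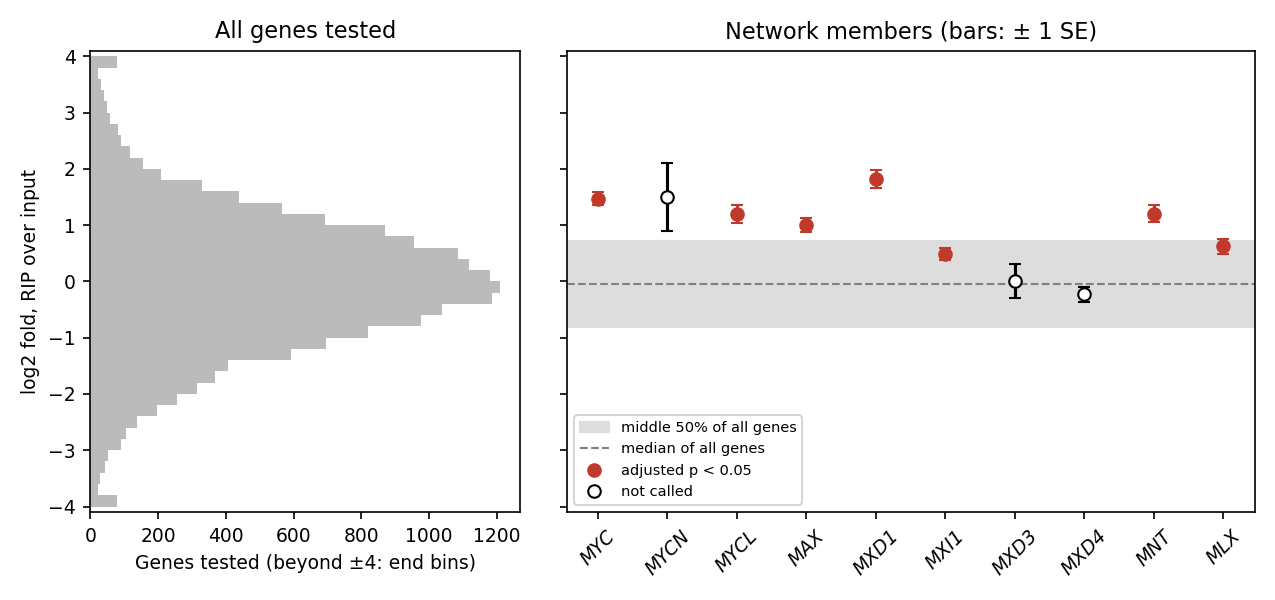
Left, log2 folds of RIP over input for the 16765 genes tested. Right, the 10 network genes with bars of 1 SE, filled red where the limma adjusted p was under 0.05, over a band for the middle 50% of all genes. MYC, MYCL, MAX, MXD1 and MNT lie above the band with their SE, MXI1 and MLX rose from within it, and the bar of MYCN is the longest.

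Because a change of scaling moves all genes of a library together, each mRNA was also set against MAX in the same library, a ratio that no scaling changes. These are ratios of normalized counts, not corrected for transcript length, so only their change between groups is read. There were 4.32, 4.48 and 4.14 MYC counts per MAX count in RIP and 3.41, 3.14 and 2.80 in the inputs. The ratio was higher in every RIP library than in every input, by 0.47 on the log2 scale (exact permutation p = 0.10, two-sided). MXD1 per MAX was 0.324, 0.286 and 0.240 in RIP and 0.191, 0.160 and 0.131 in the inputs, a difference of 0.83. Both ratios kept the groups apart. MXD4 per MAX was 0.364, 0.453 and 0.372 in RIP and 0.880, 0.997 and 0.895 in the inputs, a difference of -1.23. MXD3, MXI1 and MLX were also lower relative to MAX, with differences of -1.0, -0.52 and -0.37 and no overlap. MAX itself rose, and 82.4% of genes tested had a lower fold than MAX. A fall relative to MAX was thus shared by most genes and is not particular to these mRNAs. The differences from MAX also depend on the inputs used. With the implied mean of all 6 inputs, described further on, and group means in place of single libraries, MLX turned to 0.02 (0.023), while MXI1 was at -0.18, MXD3 at -0.55 and MXD4 at -0.86. MYC and MXD1 stayed higher relative to MAX there, at 0.72 and 0.58. That mean includes the 3 inputs analysed. In the implied mean of the other inputs alone, MXI1 had 5540 normalized counts, MLX 1844 and MAX 5835. The RIP means were 8547, 3408 and 8280.5. MXI1 and MLX were then higher relative to MAX in RIP. MXD3 (282, RIP mean 379) was close to level with MAX, and MXD4 (3345, RIP mean 3271) stayed lower. These implied means have no SD. For MYCL, MNT and MYCN the ratios overlapped, with differences of 0.20, 0.21 and 0.51 (exact permutation p = 0.40, 0.40 and 0.50). With the implied mean of all 6 inputs they were 0.81, 0.38 and 1.57, so MYCL and MYCN then lay above MYC and MXD1. With 3 libraries against 3 the smallest two-sided p is 0.10, which the 6 ratios without overlap reached. After adjustment over the 9 ratios these 6 had p = 0.15 (exact permutation). The share of all genes whose ratio to MAX did not overlap was not computed.

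**Figure D3:**
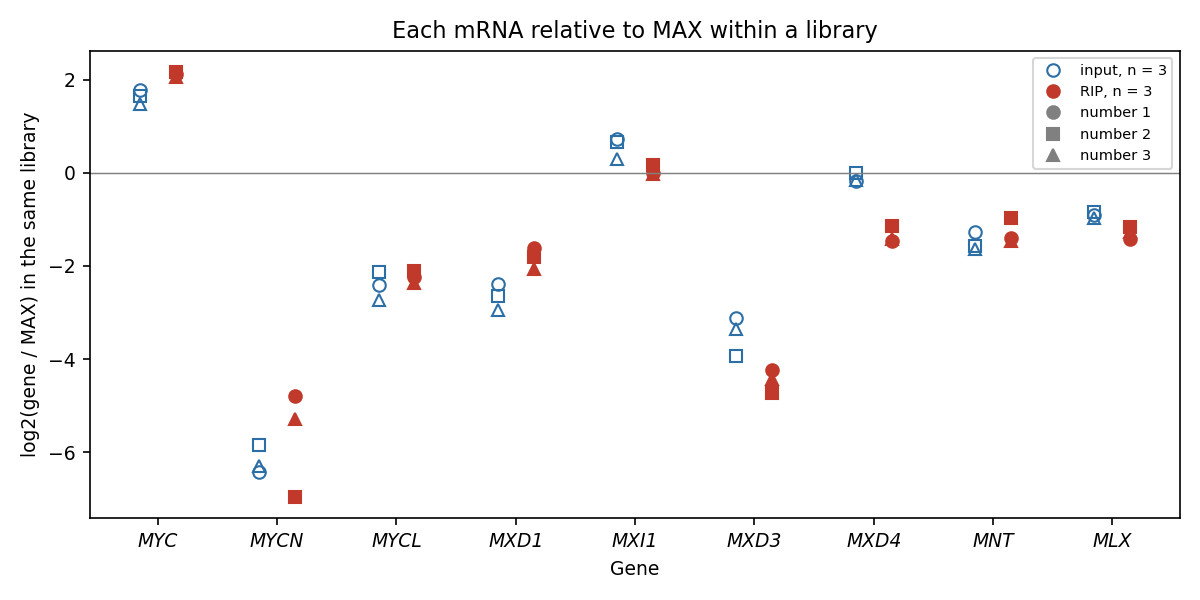
The log2 ratio of each mRNA to MAX in the same library, for 3 inputs (open) and 3 RIP libraries (filled). MYC and MXD1 are higher relative to MAX in every RIP library, MXI1, MXD3, MXD4 and MLX are lower in every one than in these 3 inputs, and MYCN, MYCL and MNT overlap. With the implied mean of all 6 inputs, which is not plotted, the difference of MLX turns to 0.02 (0.023). Those of MYCL and MYCN, at 0.81 and 1.57, then exceed those of MYC and MXD1, at 0.72 and 0.58. Against the implied mean of the other inputs alone, MXI1 and MLX turn higher relative to MAX in RIP. Of all genes tested, 82.4% had a lower fold than MAX.

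Paralogs were set against each other in the same way, over 9 pairs within the MYC and MXD families. MXD1 per MXD4 was 0.890, 0.632 and 0.644 in RIP and 0.217, 0.161 and 0.146 in the inputs, a log2 difference of 2.05 (exact permutation p = 0.10, 0.18 adjusted over the pairs). The ratio of MXD1 to MXD3 was higher in RIP by 1.82, that of MXD1 to MXI1 by 1.34 and that of MXI1 to MXD4 by 0.71, each without overlap between the groups and with the same p. MXI1 against MXD3 and MXD3 against MXD4 overlapped (0.48 and 0.23, exact permutation p = 0.30 and 0.60). MYC per MYCL was 20.2, 19.2 and 21.2 in RIP and 18.2, 13.8 and 18.7 in the inputs, without overlap and with a difference of 0.27. It turned to -0.09 with the implied mean of all 6 inputs, where the differences of MXD1 from MXD4, MXD3 and MXI1 were 1.45, 1.13 and 0.76. The pairs with MYCN overlapped, and RIP replicate 2 stood apart in both. For MYC per MYCN it had 554, against 120 and 161 in the other RIP libraries and 181 to 291 in the inputs. In the order of their folds MXD1 came before MXI1, and MXD3 and MXD4 did not differ beyond their spread.

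The choice of input also bears on some genes. The mean of the 3 inputs without values of their own was implied by the authors' mean over 9 libraries, and it has no SD. For MYC it was 13222 normalized counts, 1.03 times the mean of the inputs analysed. MXD1 stood at 1219, or 1.85 times, and MAX at 5835, or 1.41 times. MYCL stood at 439 and MYCN at 21.4, or 0.569 and 0.372 times. MXI1, MXD4, MXD3, MLX and MNT lay between 0.731 and 1.15 times. With the implied mean of all 6 inputs, the log2 fold of MXD1 was 1.31 and that of MAX 0.73, while MYCL had 1.54, MYCN 2.27 and MYC 1.45. These folds have no test, and each called member kept its direction. Against the other inputs alone, MXD1 (RIP mean 2332) and MAX (RIP mean 8280.5) rose by less still. Which of the sets had doxycycline cannot be told apart here.

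**Figure D4:**
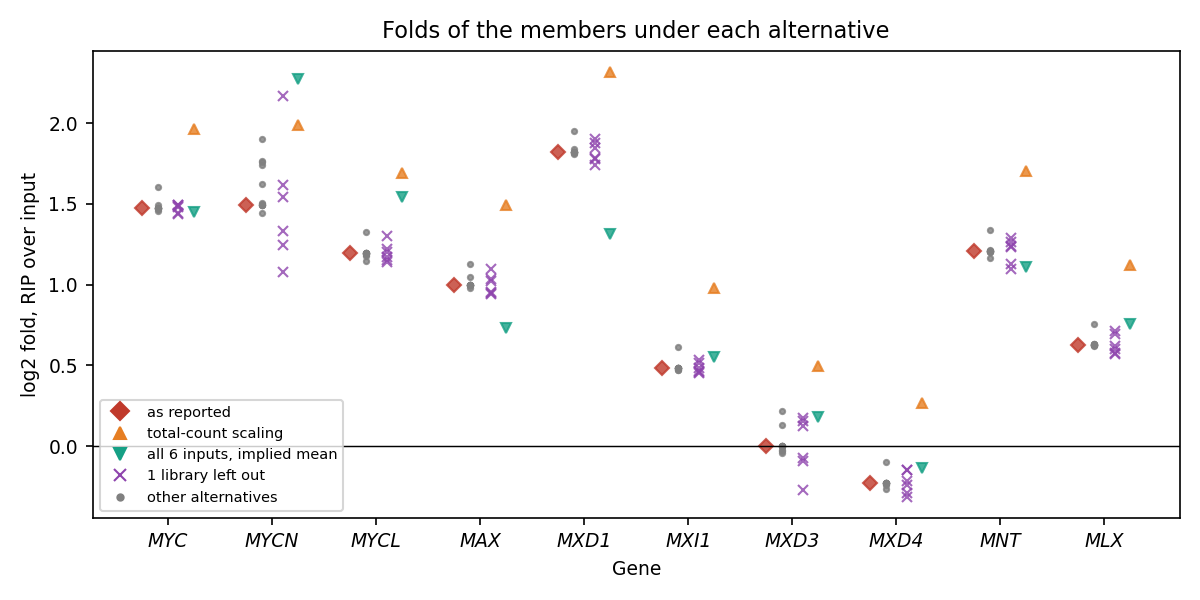
Log2 folds of the 10 mRNAs as reported (diamond) and under each alternative, including total-count scaling (up triangle), the implied mean of all 6 inputs (down triangle) and 1 library left out (cross). MYCN has the widest range, from 1.08 to 2.27, and the folds of MXD3 and MXD4 lie on both sides of 0.

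Factors beside the 10 genes were called in both directions. MGA, a large repressor that also pairs with MAX, had 11248, 8695 and 8345 normalized counts in RIP and 7015, 6139 and 4552 in the inputs. It rose without overlap, with a log2 fold of 0.69 (SE 0.17, limma adjusted p = 0.0056). MLXIP, a glucose-sensing partner of MLX, had 6230 to 7190 in RIP and 5184 to 5671 in the inputs. It rose by 0.32 (SE 0.11, limma adjusted p = 0.040), a call lost without the low-value filter, at an adjusted p under 0.01 and without any 1 library other than RIP replicate 1 (limma adjusted p = 0.060 to 0.13). MLXIPL, its paralog ChREBP, had 403, 219 and 401 in RIP and 334, 397 and 436 in the inputs and did not pass the test (-0.24, SE 0.30, limma adjusted p = 0.56). Its fold was 0.06 without RIP replicate 2. The related E-box factors USF1 and USF2 fell, with log2 folds of -0.65 and -0.60 (limma adjusted p = 0.036 and 0.0066), and neither was called lower when libraries were scaled to their totals. TFE3 and TFEB, at -0.14 and -0.60, did not pass. TFEB had 301, 50.7 and 260 normalized counts in RIP and 188, 320 and 231 in the inputs. Only its RIP replicate 2 lay below the inputs. Of these 7 genes 2 rose and 2 fell, where 22.4% and 21.2% of all genes tested did. When 1 library was left out, 1 to 2 of the 7 were called in each direction.

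Regulators of MYC protein stability were split. Of 18 genes 8 rose and 3 fell, where 22.4% and 21.2% of all genes tested did, with a median log2 fold of 0.27. Under total-count scaling 12 were called higher and 2 lower, with a median of 0.76. The ubiquitin ligase TRIM32 and FBXW7, the ligase subunit that marks phosphorylated MYC for destruction, rose by 1.40 each (SE 0.16 each, limma adjusted p = 2.9e-05 and 3e-05), and the scaffold AXIN1 rose by 1.15. The ubiquitin ligases STUB1 and HUWE1 fell, with log2 folds of -1.04 and -0.85, as did the ligase subunit SKP2, with -0.82.

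Cofactors were split as well. Of 23 genes 7 rose and 9 fell, where 22.4% and 21.2% of all genes tested did, with a median of -0.14. Under total-count scaling the median was 0.35, with 10 called higher and 4 lower. CCNT1, the cyclin of the elongation kinase P-TEFb, rose by 1.20, the acetyltransferase EP300 by 1.04 and SIN3B, a corepressor of MXD proteins, by 0.86. The helicases RUVBL2 and RUVBL1 fell, with -1.17 and -1.01, and the deacetylase HDAC1 with -1.10. Within the corepressor machinery, SIN3A rose like SIN3B (0.72), while HDAC2 fell like HDAC1 (-0.98). The corepressor NCOR1 did not pass the test (-0.14, limma adjusted p = 0.46). SIN3A, HDAC2 and NCOR1 lie outside the naming rule and were chosen after their values were seen.

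Among 16 RNA-binding proteins reported to act on MYC or MYCN mRNA, 2 rose and 8 fell, against 22.4% and 21.2% of all genes tested. The median of the 16 was -0.36. Under total-count scaling the median was 0.13, with 8 called higher and 4 lower. ZFP36 and ZFP36L1, which bring deadenylases to mRNAs, rose by 2.67 and 1.65 (limma adjusted p = 2.1e-06 and 3.1e-06). YBX1, HNRNPD and DHX9 fell, with -2.19, -1.12 and -0.95. IGF2BP1, which binds the coding region of MYC mRNA and shields it from decay, had 25716 normalized counts in input and 16349 in RIP, and fell with -0.65 (SE 0.11, limma adjusted p = 0.00054). IGF2BP1 lies outside the naming rule and was chosen after its value was seen.

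Genes known as MYC targets lay on opposite sides. Of 36 genes that MYC is known to activate, 4 rose and 24 fell, where 22.4% and 21.2% of all genes tested did. The median log2 fold of the 36 was -0.90. Many of them encode ribosome biogenesis factors and metabolic enzymes. The nucleoside diphosphate kinase NME1 (-1.76) and the nucleolar methyltransferase FBL (-1.59) were among the largest falls. EIF4A1, a helicase of translation initiation, had the lowest fold (-3.40, SE 1.23, limma adjusted p = 0.041) but few counts. It had 28.98, 0 and 14.1 normalized counts in RIP and 68.9, 68.5 and 108 in the inputs, low for a gene known to be abundant, and with a library at 0 its fold depends on the pseudocount. The whole of its 6182 bases in RefSeq lies within the readthrough gene SENP3-EIF4A1, and reads of overlapping genes cannot be told apart. SENP3-EIF4A1 had 2.48 normalized counts in RIP replicate 1 and 0 in the other libraries. The cause of the low counts was not tested. The nucleolar proteins NOP16, WDR43 and GNL3 rose by 1.0, 0.52 and 0.40. POLR1B was the remaining one that rose, by 0.30. At an adjusted p under 0.01 or without input replicate 3, 2 of this list were called higher. Under total-count scaling 7 were called higher and 16 lower, with a median of -0.40. Of 14 genes that MYC is known to repress, 10 rose and 3 fell, beside the same shares of all genes tested. The median of the 14 was 1.0. The Krüppel-like factor KLF6 and the antiproliferative factor BTG2 rose by 2.36 and 2.06, and the stress gene GADD45B by 1.37. The cell cycle inhibitor CDKN1A rose by 1.07. CLU, NDRG2 and NDRG1 fell, with -1.50, -0.77 and -0.65, and 1 of the 14 was called lower under total-count scaling. These folds are of RIP over input, and they are not changes in expression after a change of MYC. With the lists counted together, each gene once, 33 rose and 49 fell, against 50 and 27 under total-count scaling. Of all 16765 genes tested 3758 rose and 3550 fell, against 6149 and 1653 under that scaling.

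**Figure D5:**
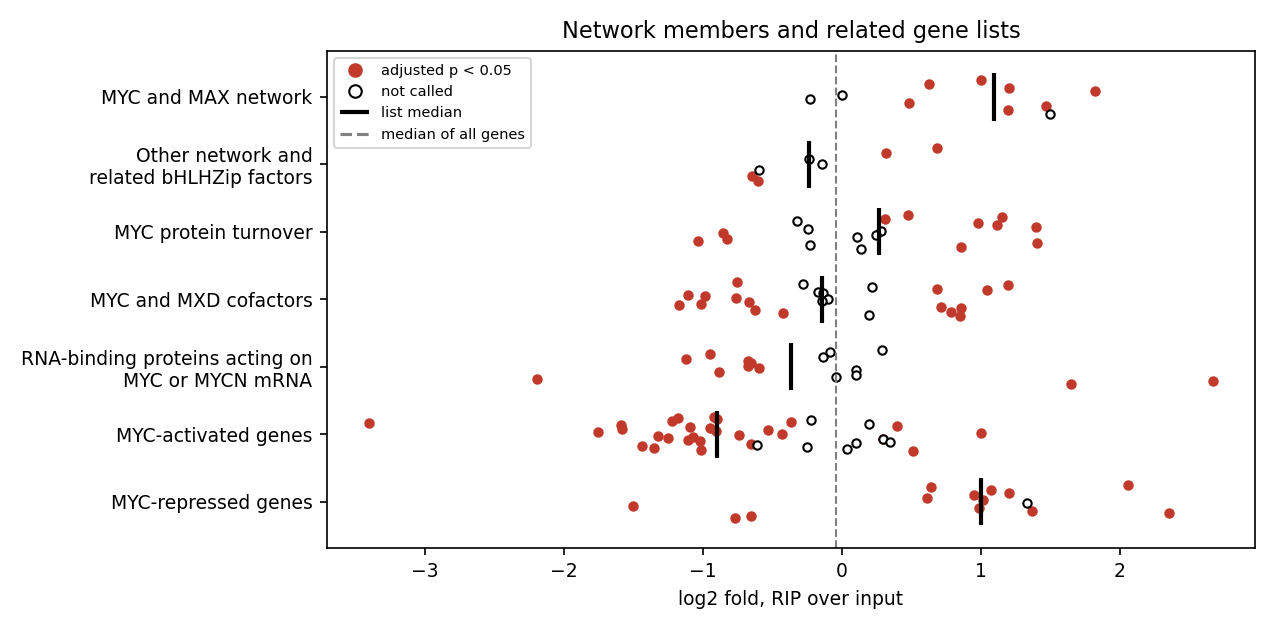
Log2 folds of RIP over input for the network genes and 6 related lists, filled red where the limma adjusted p was under 0.05, with a bar at each list's median and a dashed line at the median of all genes tested. The network (1.10) and the genes MYC represses (1.0) have medians well above the line, and the genes MYC activates (-0.90) lie below it.

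Genes with a pattern like that of MYC or MAX were found by the distance of log2 values over the 6 libraries, after each gene's own mean was subtracted, among named genes within 2-fold of its mean. Of 268 candidates the nearest to MYC were the phosphatase subunit PPP1R15B (distance 0.18), the zinc finger gene ZNF703 (0.21) and the developmental factor ZIC2 (0.26). Their log2 folds were 1.45, 1.39 and 1.50. Of 2724 candidates the nearest to MAX were CBX2 (0.15), a Polycomb subunit, NECAP1 (0.16), an endocytosis factor, and ZFP64 (0.19), with folds of 0.96, 1.08 and 0.90. The distances describe these 6 libraries and carry no test.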

How the data were processed

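The deposited table held values for 3 RIP and 3 input libraries, as a signal, made by the authors by scaling each library's gene counts with its own size factor. All values (100%) were whole multiples of the column's smallest one, within 0.01 of a read, so reads were recovered. The submitters' processing notes name STAR, featureCounts, DESeq2 and the build GRCh38, and reads were single ends of 75 bp, per the labels. The log2 fold, its standard error, the Wald score and both kinds of p-value come from the authors' DESeq2 run, per the file headers. The authors' log2 fold differed from the ratio of the column means by a median of 0.00024 over 12370 genes, and by at most 0.015, so these 3 inputs were the ones compared. The sources used here do not give the annotation or a count minimum.

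Here limma 3.58.1 (R 4.3.3, trended variance) was fitted to log2(value + 1) for the 16765 genes with a mean of at least 10, RIP against input, with Benjamini-Hochberg adjustment over all of them and a threshold of 0.05. Standard errors are limma's moderated ones. edgeR 4.0.16 and DESeq2 1.42.0 on recovered reads, other scalings, pseudocounts of 0.5 and 5, filters, library weights and each library left out were alternatives, and ratios with all 6 inputs were added after the data were seen. Exact permutation tests used SciPy 1.17.1. The fit was tested on simulated data. The network genes and lists were chosen with earlier results of these data known. Named were all network genes, MGA, MLXIP and MLXIPL, the 3 called genes with the largest fold in each direction of each list, and the 3 nearest genes to MYC and MAX. A further gene considered for the lists is not reported here. HDAC2, SIN3A, NCOR1, CDKN1A and POLR1B, as well as USF, TFE and overlapping genes, were added after their values were seen. Positions come from RefSeq (GRCh38.p14), matched by symbol.

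Libraries of a group differed by a chi-square per degree of freedom of 25.6 to 67.9, beyond sampling noise. The labels do not tie replicates to separate cultures. Each p-value then reflects only the spread of these libraries, which may be technical.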

Additional observations from a re-analysis of the deposited data

How the results depend on the processing

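The 7 called network genes kept their direction and call under each of the 19 alternatives with a test, and MYCN was called too under 8 of them. With 1 library left out, 7 to 8 network genes were called higher and 0 lower, 3121 to 3824 and 2881 to 3719 of all genes, and 29 to 31 and 43 to 49 genes of the related lists. Total-count scaling gave 6149 genes higher and 1653 lower, and 50 and 27 genes of the related lists. It turned MXD4 (0.27), MLXIPL (0.26) and the medians of the other network factors (0.26), the cofactors (0.35) and the RNA-binding proteins (0.13). Without RIP replicate 2, MLXIPL and the median of the other network factors were 0.06 (0.057 each). MXD3 fell below 0 with edgeR (-0.023), DESeq2 (-0.041), the authors' deposited table (-0.028), and without RIP replicate 1 (-0.091), RIP replicate 3 (-0.074) or input replicate 2 (-0.27). With 1 library left out its folds ran from -0.27 to 0.17, those of MLXIPL and of that median from -0.38 to 0.06. The cause of these turns was not tested. With the replicate number as a block, 7 network genes, 4053 genes higher and 3925 lower were called, and 5 in place of 3 of the MYC protein turnover genes fell. The numbers were not taken to pair the libraries in the main fit. Deviations of same-numbered libraries correlated at 0.25, 0.0025 and 0.24, and those of unlike numbers at -0.26 to 0.03. Numbers 1 and 3 thus shared some deviation, and number 2 did not. Deviations from a mean of 3 libraries are tied to each other, so these values do not settle whether the numbers pair the libraries. Depth was lowest for MYCN among the network genes, at 43 to 350 reads per library, and its RIP libraries held 350, 85 and 294.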
